A study of Mus musculus with 5 samples.

Results

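The interleukin 17 genes described here are Il17a, Il17f, Il23r, Il17ra, Il17rc and Cd163l1, which are 6 of the 28693 features counted in a droplet scRNA-seq series of mouse lung. They were taken by gene symbol, a rule that uses no measured value. Each was followed as the share of cells with at least 1 UMI (a counted RNA molecule) and as CPM (UMIs of the gene for every 1000000 UMIs of a class) in every marker-gated cell class of every library. The lungs came from *Ms4a3-CreER;R26-tdT* mice on a mixed C57BL6/129 background, males and females of at least 7 weeks, in which tamoxifen marks cells of the granulocyte and monocyte lineage with tdT. All 5 groups share these alleles and the tamoxifen treatment. Controls received PBS, and the other 4 groups received bleomycin into the trachea and were taken on day 3, day 7, day 14 or day 28. There is 1 library per group and the number of mice behind each is not stated, so that no test between time points was possible.

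The libraries held 89769386 to 167506186 UMIs in 52800 barcodes, of which 44772 had between 300 and 8000 genes, between 800 and 60000 UMIs and less than 15% of UMIs from mitochondrial genes. The day 7 library stands apart, because its lowest UMI count per barcode is 4624 against 500 to 502 in the others. Pairs of libraries share 16 to 31 of the kept barcodes. Epithelial cells, endothelial cells and fibroblasts together gave 1262 of the kept cells, from tissue prepared for leukocytes. T cells were barcodes with at least 2 Cd3 UMIs, and γδ T cells were those with Trdc, the constant segment of the δ chain, and no Trac, the constant segment of the α chain. The gate gave 844 γδ T cells, of which 92.5% held Cd3e, 87.2% held Tcrg-C1 and 0% held Trac. Transcripts of other cells were also present, since Lyz2, a gene of macrophages and monocytes, had a UMI in 98.6% of the γδ T cells at 1972 CPM. All intervals below are exact 95% intervals (binomial for shares, Poisson for CPM) and cover counting error only.

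IL-17A and IL-17F are secreted cytokines that form dimers and signal through a receptor built from IL-17RA and IL-17RC. Epithelial cells and fibroblasts answer this signal with chemokines and growth factors that draw and sustain neutrophils. In the mouse lung, γδ T cells are a well-known early source of IL-17A, and IL-23, which binds IL-23R, supports them. Cd163l1 encodes a scavenger receptor (SCART1) found on the surface of IL-17-producing γδ T cells.

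Il17a lies at chr1:20730905-20734496 on the plus strand, with 3 exons, and Il17f at chr1:20777146-20790617 on the minus strand, also with 3 exons, 42.6 kb from Il17a with 0 annotated genes between them (GRCm38). Il23r lies at chr6:67422932-67491855 on the minus strand with 11 exons, Cd163l1 at chr7:140218267-140231145 on the plus strand with 14 exons, Il17ra at chr6:120463247-120487559 on the plus strand with 13 exons and Il17rc at chr6:113471427-113483140 on the plus strand with 17 exons. None overlaps another annotated gene. The 250 bases before the RefSeq transcription start (GRCm38.p6) were read for 5 of the 6 members. The windows of Il17a (chr1:20730655-20730904), Il17f (chr1:20784271-20784520) and Il23r (chr6:67491856-67492105) are printed because they are the only 3 of these 5 that hold AGGTCA, core letters of many nuclear receptor sites, on either strand. The motif stands in capitals, as TGACCT where it lies on the other strand. The Il17f start used by RefSeq lies inside the longer gene span given above.
Il17a: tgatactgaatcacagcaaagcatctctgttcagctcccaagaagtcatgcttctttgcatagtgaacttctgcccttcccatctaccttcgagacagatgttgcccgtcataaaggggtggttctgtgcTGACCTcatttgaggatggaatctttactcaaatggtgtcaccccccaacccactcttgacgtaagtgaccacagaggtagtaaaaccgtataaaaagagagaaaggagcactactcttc
Il17f: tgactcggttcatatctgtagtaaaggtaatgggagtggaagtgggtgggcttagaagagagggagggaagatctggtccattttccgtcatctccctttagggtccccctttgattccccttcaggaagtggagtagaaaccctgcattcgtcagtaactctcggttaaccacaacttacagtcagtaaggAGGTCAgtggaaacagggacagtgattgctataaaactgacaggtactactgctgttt
Il23r: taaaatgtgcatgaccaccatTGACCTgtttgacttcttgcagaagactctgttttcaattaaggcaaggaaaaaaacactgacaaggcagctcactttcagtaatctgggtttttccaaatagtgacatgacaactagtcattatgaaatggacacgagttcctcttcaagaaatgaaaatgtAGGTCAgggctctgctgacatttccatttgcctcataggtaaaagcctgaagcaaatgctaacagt

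The motif ends 115 bases before the start of Il17a and 53 bases before that of Il17f. The Il23r window holds it at 229 to 224 bases and again at 66 to 61 bases before the start. In 4607 of 32851 RefSeq promoters of the same length (14%) the same letters occur, so that a match is common and is given here as a description of the sequence. TATAAA lies 31 to 26 bases before the Il17a start and 29 to 24 bases before the Il17f start, and is found in 12.4% of all windows. TTCNNNGAA, the letters of STAT sites, occurs in 0 of the 5 members and in 7.02% of all windows.

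Il17a was detected above all in T cells with Trdc, which are the γδ T cells and a smaller class with both Trdc and Trac. It had a UMI in 8 of 25 γδ T cells with PBS (32%, 14.9 to 53.5%), 13 of 48 on day 3 (27.1%, 15.3 to 41.8%), 33 of 67 on day 7 (49.3%, 36.8 to 61.8%), 201 of 318 on day 14 (63.2%, 57.6 to 68.5%) and 196 of 386 on day 28 (50.8%, 45.7 to 55.9%). The day 14 share is the highest, and its interval does not overlap those of the PBS, day 3 and day 28 libraries, whereas the day 7 interval overlaps it. Summed levels were 300 CPM with PBS (217 to 404), 363 on day 3 (309 to 424), 751 on day 7 (684 to 823), 854 on day 14 (808 to 902) and 642 on day 28 (601 to 685). The day 3 level rests on few cells, since 1 cell held 71 of the 161 UMIs (44.1%), and with classes taken from clusters in place of gates it was 941 CPM, with 1140 on day 7.

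Cells differed in depth, with a median of 5198 UMIs per γδ T cell with PBS, 7821.5 on day 3, 5753 on day 7, 4714.5 on day 14 and 3542.5 on day 28. After each cell was thinned to 2000 UMIs, which left 25, 47, 67, 308 and 338 cells, the Il17a shares were 28%, 23.4%, 34.3%, 52.9% and 42.3% in the same order, so that day 14 and day 28 remained the 2 highest and the day 7 value moved nearer to the PBS value. As a background, B cells, which are not a known source of IL-17A, held an Il17a UMI in 2 of 1775 cells (0.113%) at a median of 4836 UMIs, against 451 of 844 γδ T cells (53.4%) at 4257.5.

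γδ T cells were also a larger share of T cells in the later libraries. They made up 5.22% of T cells with PBS, 4.08% on day 3, 6.86% on day 7, 22.7% on day 14 and 25% on day 28. The counts depend on depth and on the gate. The day 7 library holds no barcode under 4624 UMIs, so that shallower T cells are missing from it alone. γδ T cells had a median of 4714.5 UMIs on day 14 and 3542.5 on day 28, against 5146.5 and 4305 in αβ T cells. The part of this minimum in the shares of T cells was not tested. T cells with Trdc that were set aside because they also held Trac numbered 9 with PBS, 46 on day 3, 43 on day 7, 100 on day 14 and 148 on day 28, against 25, 48, 67, 318 and 386 kept, and with them counted as γδ T cells the Il17a shares were 32.4%, 24.5%, 50%, 61.5% and 50.9%. On day 7, 73 of 140 candidate γδ T cells also scored for another lineage and were set aside as mixed, at a median of 11994 UMIs. With those cells kept, 52.9% of the day 7 γδ T cells held Il17a, a value within the interval given above.

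**Figure D1:**
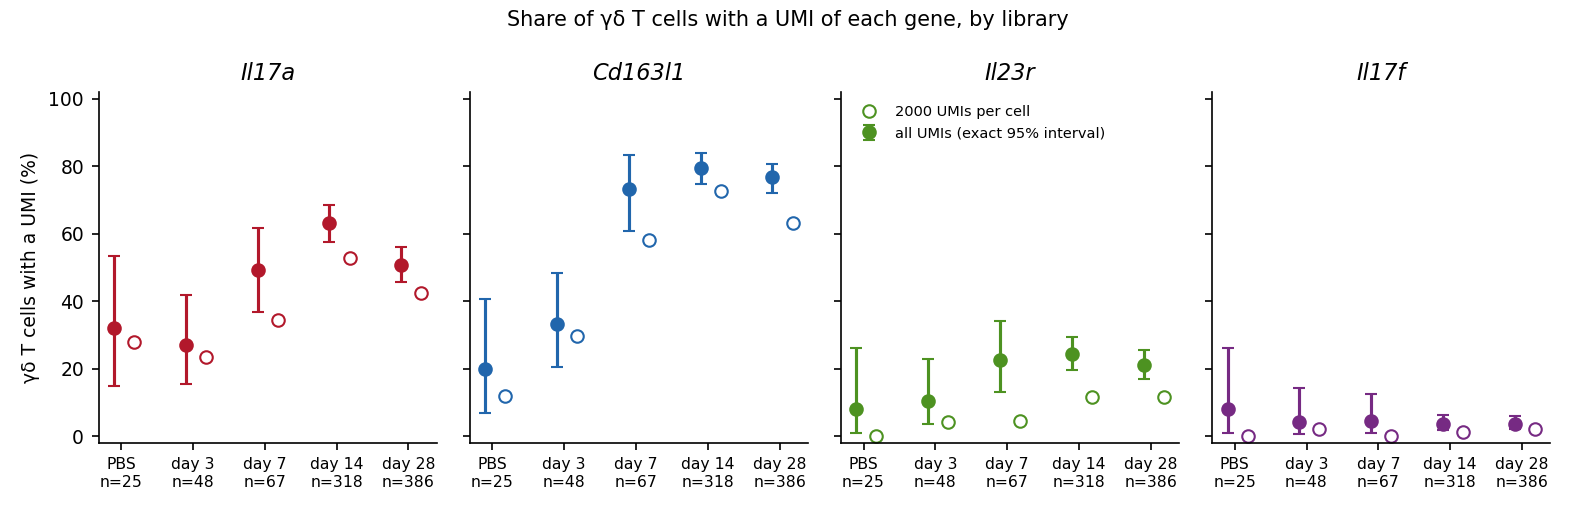
Share of γδ T cells with at least 1 UMI of Il17a, Il17f, Il23r and Cd163l1 in each of the 5 libraries, in percent, with exact 95% binomial intervals (counting error only) and the value after thinning to 2000 UMIs. Il17a reaches its highest share on day 14 (63.2%), Cd163l1 lies at 20% and 33.3% in the PBS and day 3 libraries and at 73.1% to 79.6% later, and Il17f stays under 10% throughout.

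Of all 5910 Il17a UMIs, γδ T cells held 48.6%, T cells with both Trdc and Trac 18.6% and αβ T cells 7.6%, and 77.3% lay in T cells of any kind. The T cells with both Trdc and Trac numbered 346, and 33.3% of them held Il17a with PBS (3 of 9 cells), 21.7% on day 3, 51.2% on day 7, 56% on day 14 and 51.4% on day 28. Each of these shares lies within the interval of the γδ T cells given above except that of day 14, whose own interval (45.7 to 65.9%) overlaps it. Their Il17a level was 332 CPM with PBS (190 to 539), 218 on day 3 (181 to 260), 606 on day 7 (535 to 683), 577 on day 14 (515 to 644) and 628 on day 28 (566 to 694). This is below the γδ T cell level on day 3, day 7 and day 14, where the intervals do not overlap. With PBS and on day 28 the levels are not told apart by counting error. Among γδ T cells, the cell with the most Il17a UMIs held 71 of 161 on day 3 (44.1%) and 99 of 460 on day 7 (21.5%). On day 14 the highest cell held 46 of 1292 (3.56%). The intervals do not cover this spread between cells, and its part in the day 3 and day 7 differences was not tested. Cells of mixed lineage held another 19.8% of all Il17a UMIs. Of the 184 positive ones, 92.9% had at least 2 Cd3 UMIs and 79.9% had Trdc.

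αβ T cells held Il17a in 77 of 3802 cells (2.03%), at 21.4 CPM with PBS, 11.5 on day 3, 13.1 on day 7, 16.2 on day 14 and 29.8 on day 28. In every library this is below the γδ T cell level by far more than counting error. The positive αβ T cells had Ccr6, a chemokine receptor of type 17 cells, in 41.6% against 5.96% of the negative ones, and Tcrg-C1 in 35.1% against 3.22%, at similar depth (median 5823 and 5872 UMIs). Cd4 was found in 32.5% of the positive and 27.9% of the negative αβ T cells. NK cells held Il17a in 0 of 699 cells, which allows a share of cells with a UMI of up to 0.429% by 3 counts of the total and 0.526% by the exact interval, and macrophages in 95 of 22092 (0.43%), 89 of them with 1 UMI.

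Il17f, the companion ligand, was sparse, with 248 UMIs in all kept cells. In γδ T cells it was found in 2 of 25 cells with PBS (8%), 2 of 48 on day 3 (4.17%), 3 of 67 on day 7 (4.48%), 11 of 318 on day 14 (3.46%) and 14 of 386 on day 28 (3.63%). These shares cannot be told apart at this depth. The γδ T cells that did hold Il17f mostly held Il17a as well, in 28 of 32 cells (87.5%, 71.0 to 96.5%), whereas 28 of the 451 Il17a-positive γδ T cells (6.21%) held Il17f.

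Il17f UMIs were less confined to γδ T cells than those of Il17a, since αβ T cells, the larger class, held 46.8% of them. By cell, Il17f was found in 3.79% of γδ T cells and 0.763% of αβ T cells, at 12.6 and 4.14 CPM over all libraries. By an exact binomial interval on the UMIs of both classes, the γδ T cell level was higher with PBS (2 UMIs against 1), on day 7 and on day 14. It was not on day 3 or day 28. The Poisson intervals of the 2 levels overlap with PBS (1.69 to 50.4 against 0.0106 to 2.34 CPM) and on day 7 (3.59 to 21.3 against 1.29 to 3.66 CPM). The αβ T cell level was 0.419 CPM with PBS, 4.64 on day 3, 2.25 on day 7, 3.28 on day 14 and 9.68 on day 28, against 13.9, 4.51, 9.79, 11.9 and 16.8 CPM in γδ T cells. Few cells carry these values, because 47 αβ T cell UMIs on day 3 lay in 3 cells. Of the 29 Il17f-positive αβ T cells, 14 also held Il17a.

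Il23r, the specific chain of the IL-23 receptor, was detected in 2 of 25 γδ T cells with PBS (8%), 5 of 48 on day 3 (10.4%), 15 of 67 on day 7 (22.4%), 77 of 318 on day 14 (24.2%) and 81 of 386 on day 28 (21%). Its level there was 13.9 CPM with PBS (1.69 to 50.4), 18.1 on day 3 (7.79 to 35.6), 32.6 on day 7 (19.9 to 50.4), 61.5 on day 14 (49.6 to 75.3) and 68.8 on day 28 (55.8 to 83.8). Thinned to 2000 UMIs, the shares were 0%, 4.26%, 4.48%, 11.7% and 11.5%. The day 7 share was then like that of day 3, and those of day 14 and day 28 were the highest. T cells with both Trdc and Trac held Il23r in 19.4%, αβ T cells in 35 of 3802 (0.921%) and B cells in 0 of 1775, which allows a share of cells with a UMI of up to 0.169% by 3 counts of the total and 0.208% by the exact interval.

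Outside the T and innate lymphoid cells, dendritic cells held most of the Il23r-positive cells of a named class. It was found there in 24 of 2584 cells (0.929%) at a median of 13575 UMIs, with 0 positive cells with PBS, 10 on day 3, 6 on day 7, 3 on day 14 and 5 on day 28. Macrophages, with 22092 cells of greater depth, held 8 Il23r UMIs in all. All 24 positive dendritic cells also held Ccr7, the receptor of migrating dendritic cells, which was present in 1335 of the 2560 others (52.1%). Ccr7 was itself a gate marker of the dendritic class, so that its presence follows in part from the gate.

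Cd163l1 was detected in most γδ T cells of the later libraries. It was found in 5 of 25 cells with PBS (20%, 6.83 to 40.7%), 16 of 48 on day 3 (33.3%, 20.4 to 48.4%), 49 of 67 on day 7 (73.1%, 60.9 to 83.2%), 253 of 318 on day 14 (79.6%, 74.7 to 83.9%) and 296 of 386 on day 28 (76.7%, 72.1 to 80.8%). The intervals of the 3 later libraries do not overlap those of the PBS and day 3 libraries. Thinned to 2000 UMIs, the shares were 12%, 29.8%, 58.2%, 72.7% and 63.3%, so that the same 3 libraries remained the highest. The γδ T cell level was 230 CPM with PBS (158 to 323), 291 on day 3 (243 to 346, or 666 with classes from clusters), 400 on day 7 (351 to 453), 864 on day 14 (818 to 912) and 653 on day 28 (611 to 696).

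The T cells with both Trdc and Trac also held Cd163l1, in 210 of 346 cells (60.7%), at 498 CPM with PBS (in 9 cells), 248 on day 3, 234 on day 7, 584 on day 14 and 616 on day 28. αβ T cells, which exclude them, had it in 42 of 3802 cells (1.1%), at no more than 4.16 CPM in any library, and B cells in 3 of 1775 (0.169%). Innate lymphoid cells, gated as lacking Cd3, held it in 17 of 174 cells, 12 of them among the 47 of day 14 (25.5%, 181 CPM). Of these 17, 14 carried Trdc or Tcrg-C1, against 32 of the other 157. Il1rl1, the IL-33 receptor of type 2 innate lymphoid cells, was carried by 1 of the 17 and 74 of the other 157. Il1rl1 was also a gate marker of the class, and the 17 cells were shallower (median 1323 against 4431 UMIs). The part of depth in this was not tested.

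**Figure D2:**
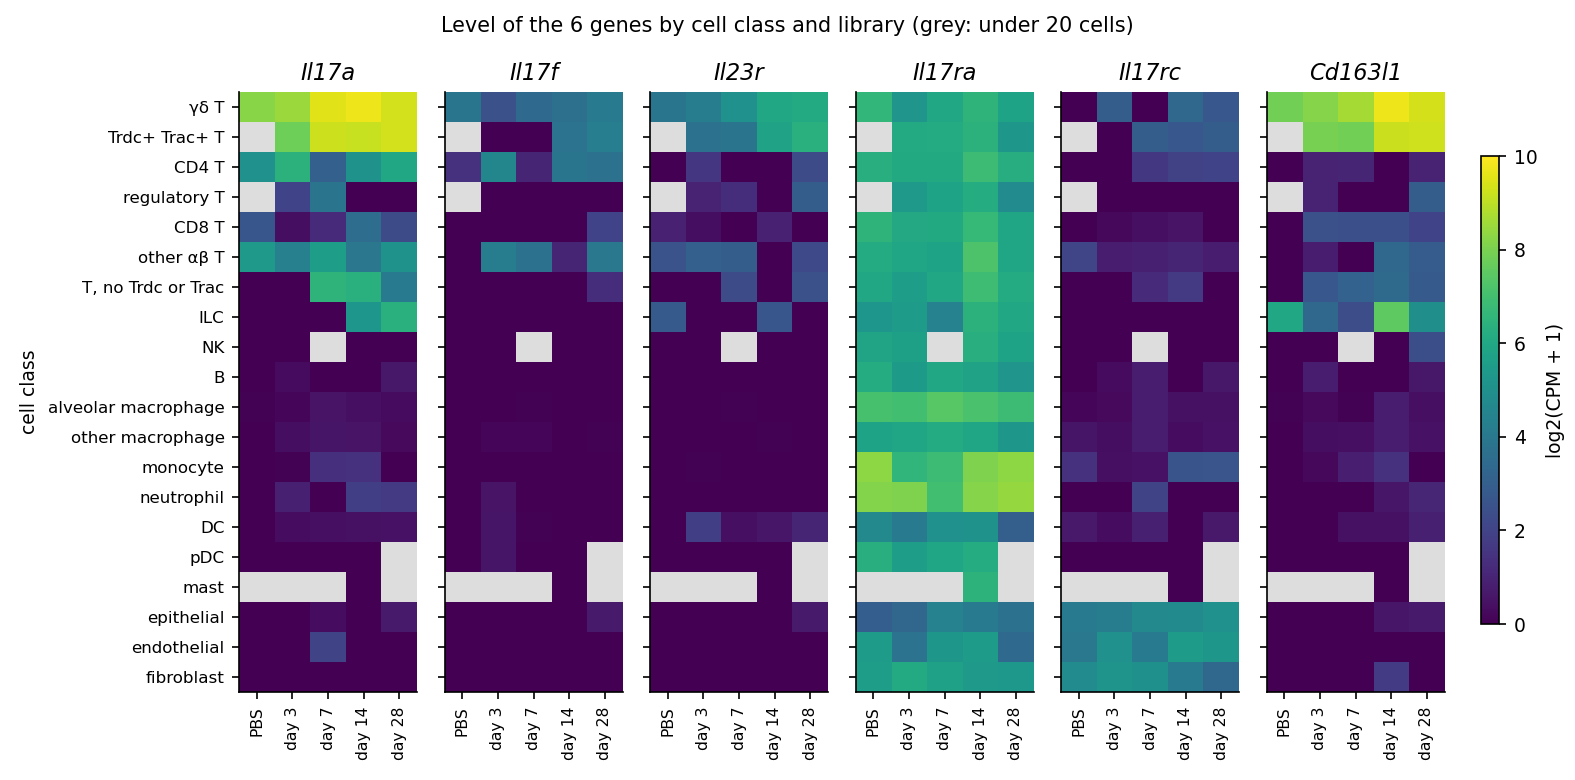
Level of each of the 6 genes (log2(CPM + 1) of summed UMIs, colour) by cell class (rows) and library (columns), with classes of under 20 cells in grey. Il17a, Il23r and Cd163l1 are highest in γδ T cells and in T cells with both Trdc and Trac, Il17ra (by median) in neutrophils and monocytes, and Il17rc in endothelial cells, fibroblasts and epithelial cells.

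The γδ T cells were then divided by markers that leave the members out, namely 10 genes of type 17 cells (among them Maf, Blk and Sox13) and 8 genes of type 1 cells (among them Tbx21, Ccl5 and Gzma), according to which list held more UMIs. Type 17 cells were 14 of 25 γδ T cells with PBS (56%), 17 of 48 on day 3 (35.4%), 56 of 67 on day 7 (83.6%), 300 of 318 on day 14 (94.3%) and 368 of 386 on day 28 (95.3%). Type 1 cells numbered 11, 31, 11, 17 and 13. Ly6c2, of the type 1 list, was also a gate marker of monocytes, which were 31.1% of kept cells on day 3. The part of monocyte transcripts in the division was not tested. The class is a range of a score rather than a type, and 16 cells lie within 1 UMI of the divide, 6 of them with equal UMIs and in neither kind.

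Within type 17 cells, Il17a was present in 57.1% with PBS, 76.5% on day 3, 57.1% on day 7, 66.7% on day 14 and 53% on day 28. The low shares of the PBS and day 3 libraries among all γδ T cells are thus not seen within the type 17 cells, where the intervals of these 2 libraries (28.9 to 82.3% and 50.1 to 93.2%) overlap those of the later ones. Cd163l1 was present in 35.7% of type 17 cells with PBS (5 of 14, 12.8 to 64.9%) and in 94.1%, 82.1%, 83% and 80.2% after bleomycin, and the PBS interval does not overlap the 4 others. Type 1 cells, in contrast, held Il17a in 2 of 83 and Cd163l1 in 6 of 83.

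Il23r was found in 179 of 755 type 17 cells (23.7%) and 1 of 83 type 1 cells, and Il17f in 32 and 0. Il17ra went across both kinds, in 25.6% of type 17 and 34.9% of type 1 cells. Markers of other cells moved with the libraries too, since the 13 macrophage and monocyte genes (8 to 13 of them detected) summed to 2161 CPM in the γδ T cells of the PBS library, 1043 on day 3, 1583 on day 7, 2577 on day 14 and 4361 on day 28. Their part in the shares above was not tested.

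**Figure D3:**
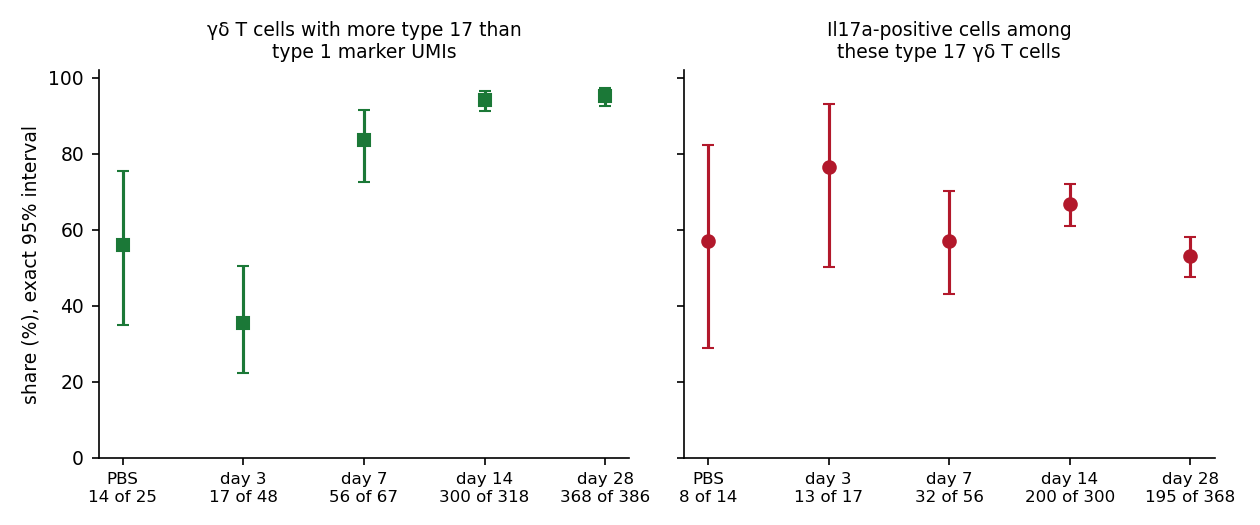
Left, share of γδ T cells with more type 17 than type 1 marker UMIs in each library, and right, share of these type 17 cells with Il17a (percent, exact 95% binomial intervals, cell counts under the axis). Type 17 cells make up 35.4% of γδ T cells on day 3 and 95.3% on day 28, whereas the Il17a share within them lies between 53% and 76.5% with overlapping intervals for PBS and the later libraries.

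Among the 755 type 17 cells, pooled over libraries, Cd163l1 went with the receptor segments. It was present in 95.4% of cells with Trdv4, a δ variable segment, against 55.1% of those without, and in 97.8% of cells with Tcrg-V6, a γ variable segment, against 75.5%. Cells with Tcrg-V4 held it in 16 of 30 (53.3%), against 82.1% of those without. Il17a differed less by segment, at 65.4% with Trdv4 and 48.5% without, and at 67.8% with Tcrg-V6 and 56.6% without. Cells with a segment were also deeper, for example 4370 against 3730.5 UMIs for Trdv4.

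Pairs of members differed in how far they overlapped within cells. Cd163l1-positive type 17 cells held Il17a more often than Cd163l1-negative ones in every library, at 5 of 5 against 3 of 9 with PBS, 13 of 16 against 0 of 1 on day 3, 60.9% against 40% on day 7, 69.5% against 52.9% on day 14 and 55.6% against 42.5% on day 28. The intervals of the 2 kinds overlap within each library. Over all libraries the Cd163l1-positive kind was deeper (median 4224 against 3757 UMIs). Il1r1, the receptor of IL-1, showed a similar relation with Il17a, which was present in 67.6% of type 17 cells with Il1r1 against 51.3% without. Il1r1 is itself a marker of the type 17 list, and the cells with it were deeper (median 4517 against 3789.5 UMIs). Il23r went little with Il17a, which was present in 61.5% of type 17 cells with Il23r against 58.7% without. Il17f was found in 6.25% of type 17 cells with Il17a against 1.3% without. With Cd163l1 present, Il17f was found in 3.44%, against 7.64% without it. Of Il17a, Il17f, Il23r and Cd163l1, at least 1 was detected in 40% of γδ T cells with PBS, 33.3% on day 3, 82.1% on day 7, 89.9% on day 14 and 86.8% on day 28, and over all libraries 348 of 844 cells held exactly 2 of them.

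To ask which members separate γδ T from αβ T cells within a library, UMIs were summed per class and library and compared with edgeR's quasi-likelihood test, with the library as a block (5 libraries, 844 and 3802 cells, Benjamini–Hochberg adjustment over all genes). This test called 1234 of 10291 genes (12%), 5.92% higher and 6.07% lower in γδ T cells. Of the 6 members, 3 were called and all of these were higher. Cd163l1 was higher by 7.15 ± 0.25 (log2 fold change ± SE, edgeR adjusted p = 1.82e-08), Il17a by 4.81 ± 0.30 (adjusted p = 1.37e-06) and Il23r by 4.44 ± 0.39 (adjusted p = 2.24e-05), each in 5 of 5 libraries.

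Il17f did not pass (1.17 ± 0.45, edgeR adjusted p = 0.125, higher in 4 of 5 libraries), nor did Il17ra (-0.42 ± 0.14, adjusted p = 0.0797). Il17rc lay close to the threshold, at 2.43 ± 0.74 (edgeR adjusted p = 0.0542) on 25 UMIs in γδ T and 17 in αβ T cells, and passed it in 5 of the alternatives, with adjusted p of 0.0141 to 0.0486, but had 0.0944, 0.257 and 0.189 without the day 3, day 14 and day 28 libraries. The split of the calls depends on the scaling, since 49.4% of them were higher with TMM factors, 53.8% with DESeq2 and 73.9% with totals alone, which moved the median of all genes from -0.04 to 0.17. The number of calls fell to 775 without the day 14 library and to 582 without the day 28 library, and was 304 without the library block, while Il17a, Il23r and Cd163l1 had adjusted p of at most 5.79e-04 in each of these.

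A list of 58 further genes of the IL-17 pathway was read in the same test, and 44 of them were tested. 18 were higher in γδ T cells, 7 were lower and 19 did not pass, with a median log2 fold change of 0.49 against -0.04 over all genes tested. The furthest above αβ T cells were Sox13, a transcription factor of the γδ T17 lineage (6.36 ± 0.32, edgeR adjusted p = 2.97e-07), Blk, a kinase needed for these cells (6.07 ± 0.31, adjusted p = 3.57e-07), and Il1r1 (4.69 ± 0.30, adjusted p = 1.68e-06). The furthest below were Il17rb, a receptor chain for IL-25 (-3.54 ± 1.04, adjusted p = 0.0480), Il6ra, which binds IL-6 (-2.29 ± 0.41, adjusted p = 0.00343), and Ifng, the cytokine of type 1 cells (-1.69 ± 0.41, adjusted p = 0.0184). With totals alone, 22 were higher and 4 lower.

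**Figure D4:**
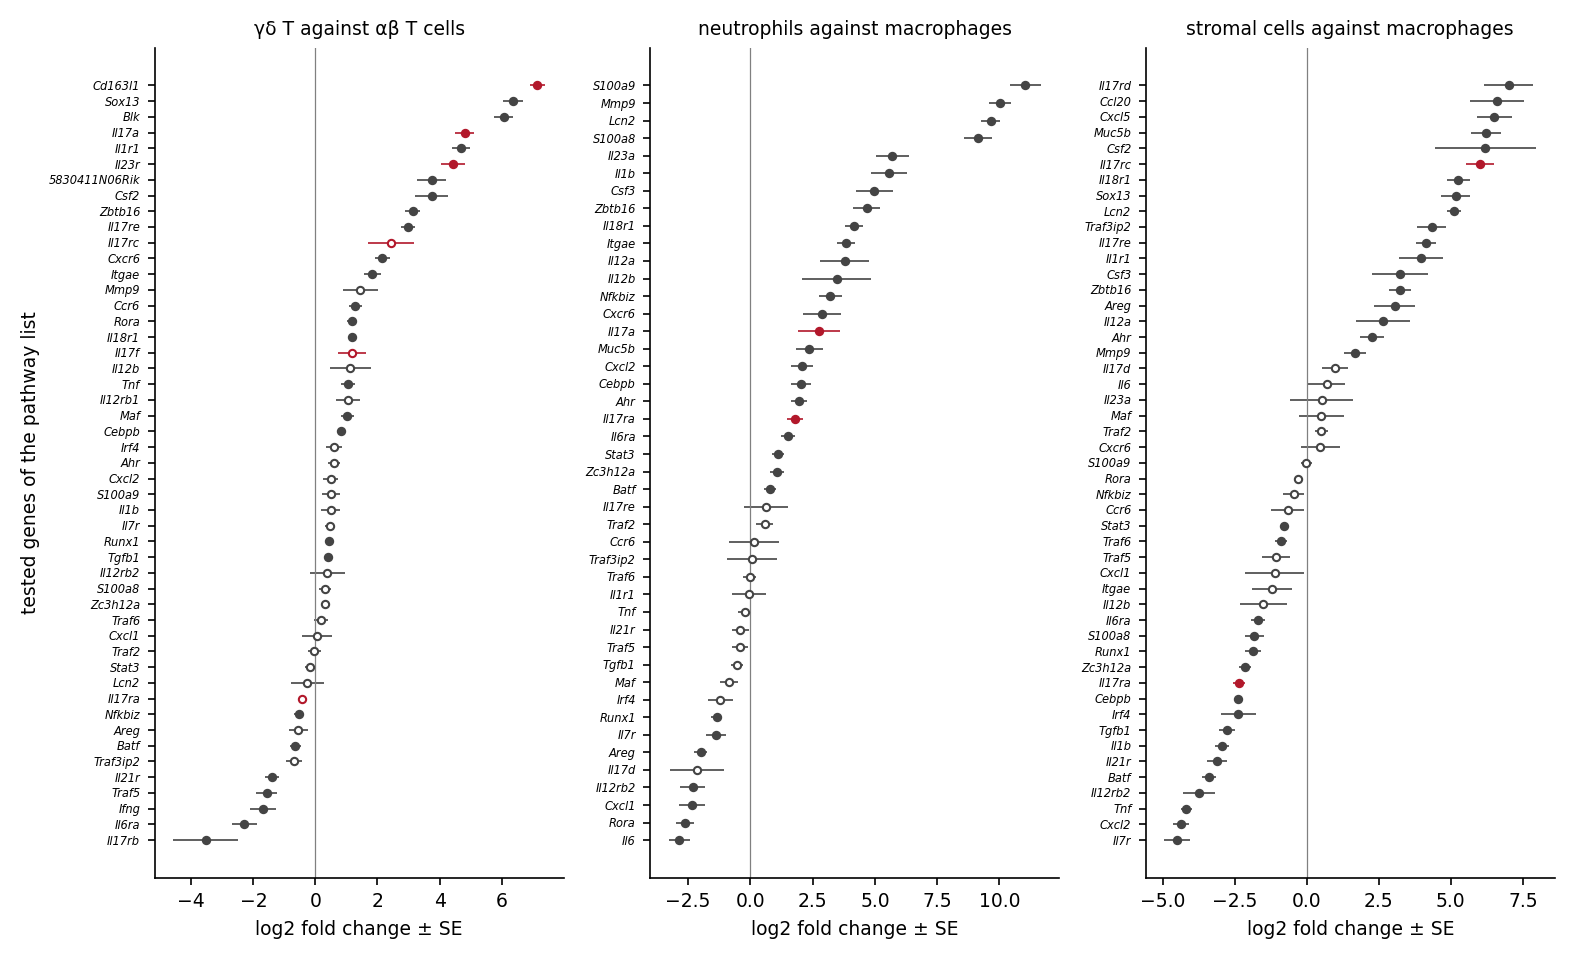
Log2 fold change (edgeR, ± SE) of tested genes of the IL-17 pathway list in the 3 comparisons, with members in red and filled points for an adjusted p under 0.05. In γδ T against αβ T cells, Cd163l1 (7.15), Sox13 (6.36) and Blk (6.07) lie at the upper end and Il17rb (-3.54) at the lower end.

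The receptor chains had other distributions. Il17ra, the shared chain, had 62725 UMIs, of which alveolar macrophages, the most numerous class, held 60.4%. By the median over libraries its level was highest in neutrophils, at 281 CPM with PBS (261 to 302), 267 on day 3 (247 to 289), 126 on day 7 (100 to 157), 286 on day 14 (263 to 311) and 338 on day 28 (301 to 378). The day 7 value stands apart and comes from 66 neutrophils with a median of 7186.5 UMIs, against medians of 2168.5 to 3310 in the other libraries. Monocytes had 312 CPM with PBS, 96 on day 3, 116 on day 7, 265 on day 14 and 314 on day 28. Their range overlaps that of neutrophils, and with PBS they were the higher of the 2 classes.

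Monocytes with more Ace and Treml4 than Ly6c2 UMIs, as in the patrolling kind, had a higher Il17ra level than the other monocytes in every library, beyond counting error in 3 of 5. They had 407 CPM against 202 with PBS, 344 against 88.2 on day 3, 244 against 99.4 on day 7, 319 against 223 on day 14 and 320 against 292 on day 28, where the others were 5 cells. The intervals overlap on day 14 (253 to 395 against 175 to 280) and on day 28 (237 to 424 against 151 to 510) and do not in the other 3 libraries. They made up 64.2% of monocytes with PBS, 6.38% on day 3, 14% on day 7, 56.9% on day 14 and 84.4% on day 28, the same order of libraries as the level of Il17ra over all monocytes.

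Alveolar macrophages held Il17ra at 137 CPM with PBS, 125 on day 3, 167 on day 7, 140 on day 14 and 115 on day 28. On day 7 they were above neutrophils (126) and monocytes (116), and on day 3 above monocytes (96). The class next below by median, CD4 T cells, ranged from 65.9 to 114 CPM, but other αβ T cells reached 145 and T cells without Trdc or Trac 117, which overlap the alveolar macrophages. Other macrophages ranged from 37.7 to 70.8 CPM, γδ T cells from 36.1 to 97.6 and fibroblasts from 39.4 to 67.9, and these ranges overlap. Epithelial cells came last, at 6.99 to 20.6 CPM, after dendritic cells at 7.08 to 32.8.

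Neutrophils and macrophages were compared in the same way (2767 and 22092 cells, 5 libraries). The test called 7471 of 12901 genes (57.9%), 25.6% higher and 32.3% lower, so that most genes are called between these classes. Il17ra was higher in neutrophils by 1.80 ± 0.31 (log2 fold change ± SE, edgeR adjusted p = 7.31e-04) in 5 of 5 libraries, against a median of -0.24 over all genes. On day 7 the difference (126 against 115 CPM) was within counting error, and without that library the fold change was 2.10. With totals alone it was 1.24, against a median of -0.81, and 25.4% of calls were higher in place of 44.3%, or 52.2% with DESeq2. Il17a was also called (2.76 ± 0.83, edgeR adjusted p = 0.0150), but on 9 UMIs in neutrophils and 110 in macrophages, and not without the day 3 library (adjusted p = 0.0531). The other 4 members were too low to be tested.

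Of the 58 pathway genes 43 were tested here, with 23 higher in neutrophils, 7 lower and 13 not passing, at a median of 1.06. Over all 12901 genes tested 25.6% were higher and 32.3% lower. S100a9 (11.03), Mmp9 (10.03) and Lcn2 (9.64) had the largest positive log2 fold changes, but S100a9 and Mmp9 served to gate neutrophils and are given as a description. Lcn2 encodes an iron-binding protein of neutrophil granules. Outside the gate genes (S100a8, S100a9, Mmp9 and Il7r) 20 of 39 were higher and 6 lower, and with totals alone 19 of 43 were higher and 11 lower. Il6 (-2.85), Rora (-2.62) and Cxcl1 (-2.34) were the furthest below macrophages.

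Il17rc, the chain that pairs with IL-17RA, had its highest levels outside the immune cells. Of its 794 UMIs, epithelial cells, endothelial cells and fibroblasts together held 50.6%. Epithelial cells had 16.3 CPM with PBS (8.91 to 27.4), 17.8 on day 3 (6.54 to 38.8), 25.2 on day 7 (20.5 to 30.7), 25.6 on day 14 (20.8 to 31.1) and 31.9 on day 28 (23.5 to 42.3), and the intervals of all 5 libraries overlap. Fibroblasts had 27 CPM with PBS (13.9 to 47.1), 35.5 on day 3 (24.7 to 49.3), 31.5 on day 7 (22.6 to 42.7), 16.3 on day 14 (6.56 to 33.6) and 9.37 on day 28 (3.04 to 21.9). The day 28 interval lies below those of day 3 and day 7, and 5 of 69 fibroblasts were positive on day 28 (7.25%) against 32 of 100 on day 7. Endothelial cells had 15 CPM with PBS (1 UMI), 32.4 on day 3, 16 on day 7, 45.3 on day 14 and 38.7 on day 28 with overlapping intervals, and the 3 classes overlap in range. Macrophages stayed at 0.114 to 0.712 CPM and neutrophils held Il17rc in 2 of 2767 cells. γδ T cells held it in 24 cells, at 0 CPM in the PBS and day 7 libraries and at 5.62 to 9.26 CPM in the others. All 24 were type 17 cells, a kind that made up 755 of all 844 γδ T cells (89.5%). Type 1 cells held it in 0 of 83 (0 to 4.35%), an interval that includes the type 17 share of 3.18%.

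**Figure D5:**
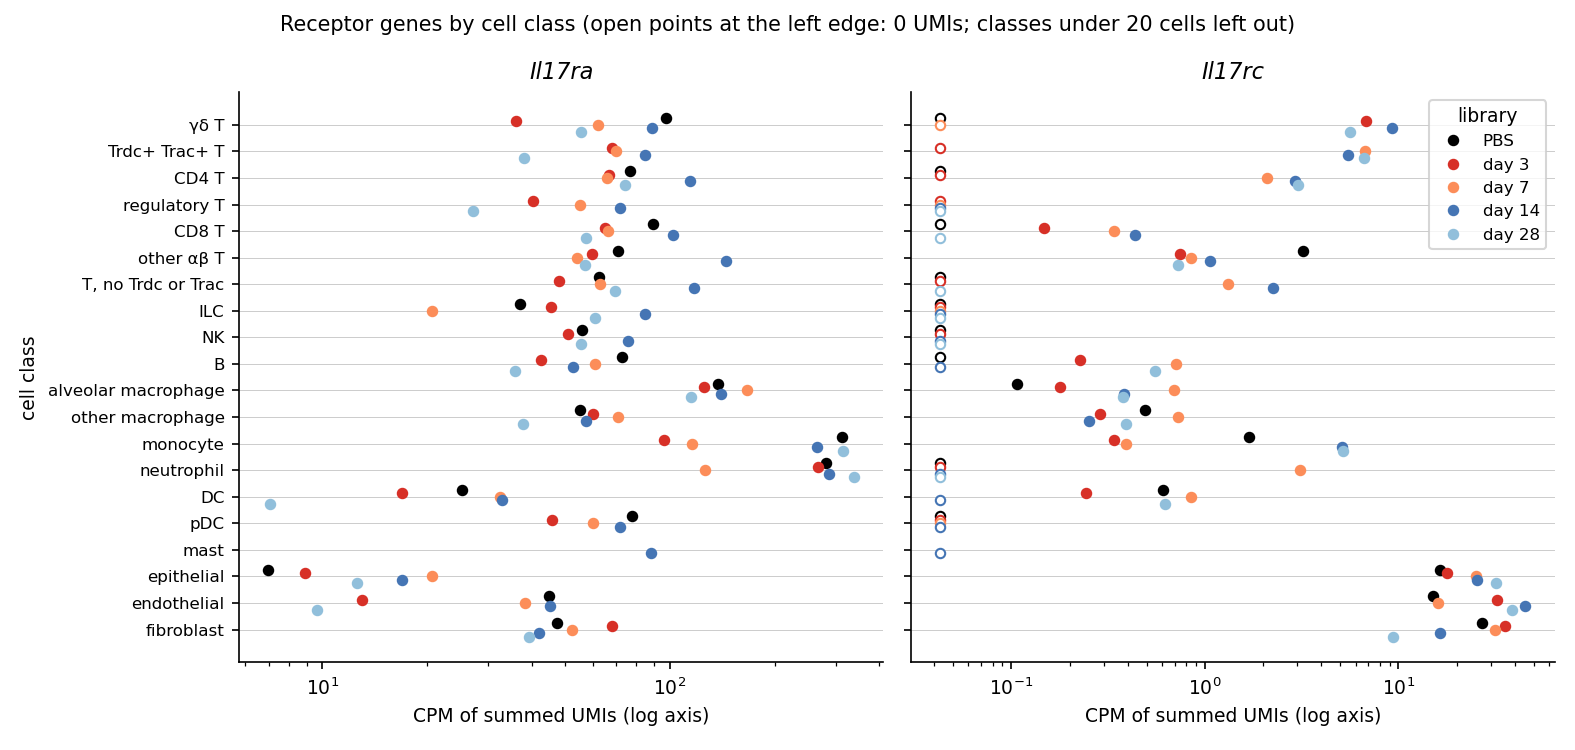
Summed level (CPM, log axis) of Il17ra and Il17rc by cell class, with 1 coloured point per library and open points at the left edge for 0 UMIs. By the median over libraries Il17ra is highest in neutrophils and monocytes and lowest in epithelial cells (6.99 to 20.6 CPM), although alveolar macrophages (167 CPM) exceed both on day 7, whereas Il17rc is highest in endothelial cells, fibroblasts and epithelial cells and at 0.107 to 0.727 CPM in macrophages.

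Between stromal cells (epithelial, endothelial and fibroblast, 1262 cells) and macrophages, each taken as a whole, the 2 chains differed in opposite directions. By class, Il17ra overlapped between fibroblasts (39.4 to 67.9 CPM) and other macrophages (37.7 to 70.8 CPM). The edgeR test called 9058 of 15057 genes (60.2%), 31.8% higher and 28.3% lower. Il17rc was higher in stromal cells by 6 ± 0.48 (log2 fold change ± SE, adjusted p = 4.76e-05) and Il17ra was lower by 2.35 ± 0.22 (log2 fold change -2.35, edgeR adjusted p = 9.26e-05), each in 5 of 5 libraries. With totals alone the fold changes were 6.32 and -2.06, and 68.2% of the calls were higher in stromal cells in place of 52.9%, or 56.8% with DESeq2.

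Both chains were detected in the same cell in 44 of 189 Il17rc-positive epithelial cells (23.3%, 17.5 to 30%) and in 31 of 72 fibroblasts (43.1%, 31.4 to 55.3%). Il17rc-negative cells of these classes held Il17ra in 15.7% and 26.6%, but were also shallower (10942 against 17148 UMIs in epithelial cells and 7451.5 against 13971 in fibroblasts). The part of depth in this was not tested.

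Of the 58 pathway genes 48 were tested between stromal cells and macrophages, with 18 higher, 16 lower and 14 not passing, at a median of 0.22 against -0.02 over all genes. Over all 15057 genes tested 31.8% were higher and 28.3% lower, so that calls in either direction are common between these classes. Il17rd, a receptor chain that also acts in growth factor signalling, was higher by 7.00 ± 0.86 (edgeR adjusted p = 3.11e-04), Ccl20, a chemokine that binds CCR6, by 6.59 (adjusted p = 6.32e-04) and Cxcl5, a neutrophil chemokine made by epithelial cells, by 6.50 (adjusted p = 9.01e-05). Il7r (-4.50), Cxcl2 (-4.38) and Tnf (-4.18) were the furthest below macrophages. Outside the gate genes 17 of 44 were higher and 14 lower, and with totals alone 20 of 48 were higher and 14 lower.

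The genes most like each member were taken by Pearson correlation of log2(CPM + 10) over 92 units of a cell class in a library, which share depth within a library. Only genes that reached a set part of the member's UMI total were ranked. This left out Il23r (397 UMIs) for Il17a (4711) and Cd163l1 (3901), with which it had r = 0.866 and 0.908. Il17a was most like Tcrg-C1 (r = 0.906), Cd163l1 (0.874), 5430421N21Rik (0.818), Actn2 (0.817) and Trdc (0.809). Cd163l1 was most like Tcrg-C1 (0.954), Trdc (0.919), Il17a (0.874), Blk (0.819) and 5430421N21Rik (0.783). Trdc and Trac defined the γδ T class, so that likeness to Trdc follows in part from the gate.

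Il23r was most like Tcrg-V6 (0.942), Cd163l1 (0.908), Tcrg-C1 (0.900) and Cdh10 (0.892). Il17f was less closely matched, with Kcnmb4 (0.696), Il17a (0.694), Il23r (0.679), Trgv2 (0.674) and Aqp3 (0.668). Il17ra was most like Apbb1ip (0.781), Pag1 (0.775), Itgal (0.745), Cdk2ap2 (0.716) and Vsir (0.698), and Il17rc like Phldb2 (0.906), Npdc1 (0.900), Ehd2 (0.893) and S100a16 (0.891). The 2 receptor chains had r = -0.402 with each other. With a pseudocount of 1 the 5 nearest genes kept 1 of their number for Il17rc and 3 to 5 for the others.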

How the data were processed

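Lung cells of 5 libraries, 1 per group, were profiled with the 10x 3′ v3.1 kit. The authors aligned the reads with Cell Ranger (6.0.0 per the labels, to mm10) and deposited raw UMI counts per gene and barcode, without normalization or doublet removal. The members and gene lists were chosen with earlier results of these data known.

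Each cell took the class of its highest marker score (at least 0.3 of the mean of the 300 highest-scoring cells), and cells scoring 0.4 for another lineage were called mixed. These score limits were set after the data were seen. No other doublet removal was done. CPM were taken from UMIs summed over cells. Classes with at least 20 cells in a library were compared with edgeR 4.0.16 in R 4.3.3 (TMM, filterByExpr, library as a block, 4 residual degrees of freedom), adjusted by Benjamini–Hochberg over all genes, at a threshold of 0.05. The tests were checked on simulated data. Alternatives were DESeq2 1.42.0, no filter, no block, at least 50 cells, 1 library left out, thinning to 2000 UMIs, the day 7 UMI minimum, 2 UMIs for a positive cell, mixed cells kept, Scrublet (scanpy 1.11.5), a mitochondrial limit of 10%, stricter and looser gates, Leiden classes, means over cells and a pseudocount of 1, and, chosen after seeing the data, scaling by totals. Named genes are the 6 members, the 3 largest called changes of the pathway list in each direction per test, and the 5 genes most like each member; of the genes the rule gives and the pathway list, 2 are not reported here. Cebpd of that list was not matched. Other genes named beside the members (receptor segments, Il1r1, Ccr6, Ccr7, Il1rl1) were chosen after their values were seen. Gene positions are from the GENCODE annotation of GRCm38 and promoters from RefSeq.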

Additional observations from a re-analysis of the deposited data

How the results depend on the processing

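No paired analysis was possible because each group has 1 sample, so that time points have no replicates to pair. Classes were compared within libraries, with the library as the block. The number of genes called between γδ T and αβ T cells was 304 without the library block and ranged from 582 to 1325 when 1 library was left out. The same range was 5780 to 8297 for neutrophils and 7419 to 9065 for stromal cells against macrophages. The Il17a share of γδ T cells became 34.3% on day 7, 52.9% on day 14 and 42.3% on day 28 after thinning to 2000 UMIs, 49.7% on day 14 and 34.5% on day 28 with 2 UMIs for a positive cell, and 61.8% (of 55 cells) on day 28 with the day 7 UMI minimum. The Il17ra level of macrophages was 139 CPM with PBS, 98.6 on day 14 and 91.4 on day 28 as a mean over cells, and 108 on day 3 and on day 7 with classes from Leiden clusters. The causes were not tested. With Leiden classes the Il17a level of γδ T cells was 941 CPM on day 3 and 1140 on day 7, and that of Cd163l1 was 666 on day 3. No fold change of a tested member changed direction in the alternatives to the main test. The Il17rc difference between γδ T and αβ T cells passed the threshold with DESeq2 (edgeR in the others; adjusted p = 0.0409), without a filter (0.0141), with totals alone (0.0341), without the PBS library (0.0486) and without the day 7 library (0.0363). The PBS and day 3 values rest on 25 and 48 γδ T cells.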
